A study of Saccharomyces cerevisiae with 18 samples.

Results

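The genes described here are 46 budding yeast genes for cytosolic aminoacyl-tRNA synthetases and for translation initiation and elongation factors. They were taken by name: a gene belonged to the set if its name in the count table was on a list of such genes, and no measured value was used. All 46 names were found among the 7126 genes of the table, and all 46 passed the filter on low counts that left 6239 genes to test. By role they are 8 class I synthetases, 10 class II synthetases with the cofactor gene ARC1 (11 genes), 7 factors acting at the cap and the poly(A) tail, 6 factors of start codon selection, 5 subunits of eIF3 and 9 genes of elongation.

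The study asked how forms of the S-phase transcription factor Hcm1 with altered phosphorylation affect gene expression in cells adapted to LiCl, a salt that stresses yeast through the lithium ion. Polyadenylated RNA was sequenced from asynchronous cultures of 3 strains in 2 media, with 3 replicate cultures in each of the 6 groups. The groups were hcm1-3N in LiCl, hcm1-3N in control medium, hcm1-8E in LiCl, hcm1-8E in control medium, WT in LiCl and WT in control medium. LiCl cultures received 150 mM LiCl, and every culture was diluted at 24 hours and collected at 40 hours during logarithmic growth.

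All 3 strains were MATa haploids of the BY4741 background with the alleles his3delta1, ura3delta0, leu2delta0 and lys2delta0. Each carried HIS3MX6-GAL1p-HCM1-3HA-KanMX at the HCM1 locus, so that the chromosomal copy was driven by the galactose-inducible GAL1 promoter and shut off in the dextrose medium used here. Each also had Hyg-TEFp-GFP in place of a short stretch of chromosome VI, a GFP gene behind a TEF promoter. The Hcm1 of the cell came from a centromeric URA3 plasmid kept by growth without uracil, either pRS316-HCM1p-HCM1-3V5 (WT) or the same plasmid with a mutant allele in its place. The hcm1-3N allele has alanine substitutions in a phosphodegron near the N terminus that stabilise the protein, and in hcm1-8E glutamic acids replace the CDK sites within the transactivation domain. The strains thus differ in a plasmid and share every chromosomal allele, including those of the WT controls.

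Aminoacyl-tRNA synthetases join each amino acid to its tRNAs, and fall into class I and class II by the fold of their catalytic core. Initiation factors bring the cap, the poly(A) tail and the small ribosomal subunit together and set the start codon, and elongation factors then deliver charged tRNAs and move the ribosome along the mRNA. In budding yeast most of these proteins are essential and abundant, and their genes are among those whose mRNA falls when growth slows. When charged tRNAs run short, the kinase Gcn2 modifies eIF2 and the transcription factor Gcn4 is made, and Gcn4 acts through the sequence TGACTC before amino acid biosynthesis genes and some synthetase genes.

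The libraries held 18816441 to 21851012 counts, and the 46 genes took 3.73% to 4.46% of them. At this depth 3 counts, taken as the floor, correspond to 0.137 to 0.159 CPM (counts scaled to the same library total), far under every level of the 46 genes given below. Later CPM values also use edgeR's TMM factors, while this floor and the marker genes of this paragraph use library totals alone. The haploid mating type fitted the labels: the a-factor gene MFA1 was at 224 to 519 CPM and the a-cell receptor gene STE2 at 581 to 811 CPM, while the alpha-cell receptor gene STE3 was at 7.4 to 16.9 CPM and the alpha-factor gene MF(ALPHA)1 at 0.875 to 23.6 CPM. The deleted markers LEU2 and LYS2 had 0 counts in 18 of 18 libraries, whereas HIS3, marked his3delta1 in the genotype, was at 49.6 to 176 CPM. Libraries with the same replicate number deviated from their group means together, with a mean correlation of 0.52 between groups for the same number and -0.22 for different numbers, and replicate 1 stood apart most. The submitters describe biological triplicates, so p-values here measure the spread between such cultures.

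The levels of the 46 genes per unit of gene length were compared in the authors' TPM (counts divided by gene length and scaled to the same total in each library). At the top stood elongation genes: TEF2 and TEF1, the paired genes for eEF1A, which carries charged tRNAs to the ribosome, averaged 2876 and 2634 TPM over the 18 libraries, HYP2 for eIF5A 2861 TPM, and EFB1 for the exchange factor that recharges eEF1A 1877 TPM. The lowest were TIF4632 with 22.2 TPM, RPG1 with 49.9 TPM and TIF4631 with 57.1 TPM, genes for the scaffold eIF4G and for the largest eIF3 subunit. TEF2, HYP2 and TEF1 overlapped in their ranges over the libraries (2409 to 3349, 2195 to 3373 and 2366 to 2903 TPM), so their order is not separated by the spread. Among the synthetases KRS1 for lysine (466 TPM) and DED81 for asparagine (424 TPM) were highest, and GLN4 for glutamine (75.9 TPM) was lowest.

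**Figure D1:**
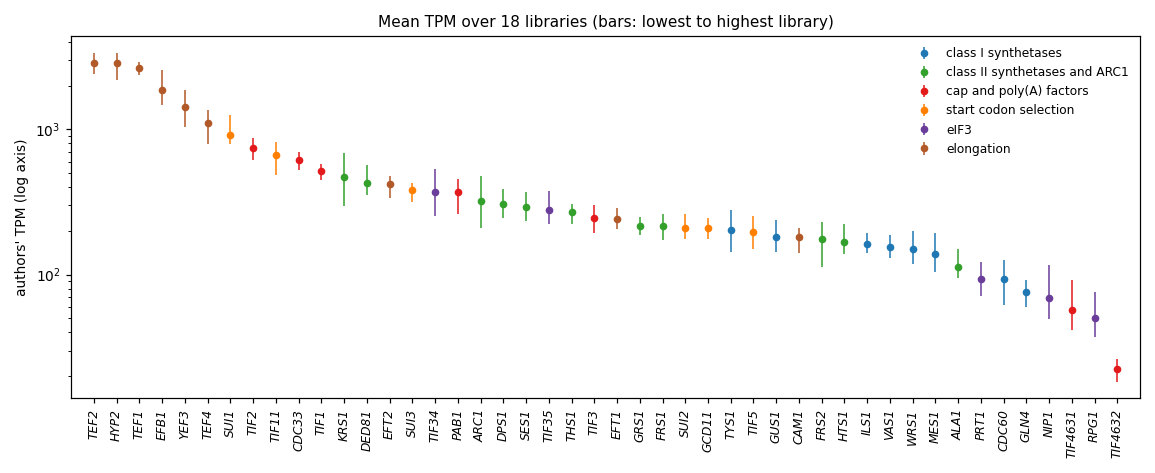
Mean of the authors' TPM over the 18 libraries for each of the 46 genes, on a log axis, with bars from the lowest to the highest library and colours for the roles. The elongation genes TEF2, HYP2, TEF1, EFB1, YEF3 and TEF4 hold the first 6 places, and TIF4632 lies lowest at 22.2 TPM.

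LiCl against control medium, the first question of the design, was tested within each strain on the counts by the quasi-likelihood method of edgeR. The p-values were adjusted after Benjamini and Hochberg over the 6239 genes, with a threshold of 0.05. Of the 46 genes 4 were called in hcm1-3N, 17 in hcm1-8E and 17 in WT, where 10.3%, 29.5% and 30.4% of all genes tested were called. The calls in hcm1-3N were 2 higher and 2 lower in LiCl, those in hcm1-8E 5 higher and 12 lower, and those in WT 6 higher and 11 lower. Over all genes 5.16% rose and 5.18% fell in hcm1-3N, 17.1% rose and 12.5% fell in hcm1-8E, and 16.5% rose and 13.9% fell in WT. The share of the 46 that was called in either direction (8.7%, 37% and 37%) was thus near that of all genes. Among the calls in hcm1-8E and WT more members fell than rose, while more of all genes rose than fell. Log2 fold changes were negative for 25 of the 46 in hcm1-3N, 28 in hcm1-8E and 21 in WT. The median of the 46 was -0.017 in hcm1-3N, -0.069 in hcm1-8E and 0.006 in WT against 0.0092, 0.032 and 0.018 over all genes. Without TMM, on library totals alone, the median of all genes moves to 0.13 and that of the 46 to 0.032 in hcm1-8E, and the calls there become 6 higher and 8 lower, while in hcm1-3N they become 2 higher and 1 lower. The changes differed from gene to gene and are described role by role below. As the RNA is from bulk cultures, a change in the share of cells at a stage of the cell cycle cannot be told apart from a change of RNA per cell.

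The counts depended on single libraries and on the pairing of replicates. Without replicate 3 of hcm1-3N in LiCl, 11 of the 46 genes were called in that strain and 20.1% of all genes. Without replicate 2 or replicate 3 of its control cultures 2 members were called, and 2.42% and 3.39% of all genes. In hcm1-8E 11 members were called without control replicate 2 (16.9% of all genes), 11 without control replicate 3 (19.1%) and 10 without LiCl replicate 3 (23.3%). With the replicate number as a block 9 genes were called in hcm1-3N, 21 in hcm1-8E and 23 in WT (of all genes 38.1%, 48.1% and 49%), and these included each of the 4, 17 and 17 called without it. The fits that left out 1 library, here and below, were made without the block. WT calls lost in some of them and kept in the blocked fit of all libraries included PRT1 (edgeR adjusted p = 0.0015), EFB1 (0.0034), KRS1 (0.0132), FRS2 (0.0173) and TIF2 (0.0231). The LiCl and control libraries of a gene did not overlap for 15 members in hcm1-3N, 22 in hcm1-8E and 23 in WT, and for 31.3%, 44.5% and 45.3% of all genes.

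**Figure D2:**
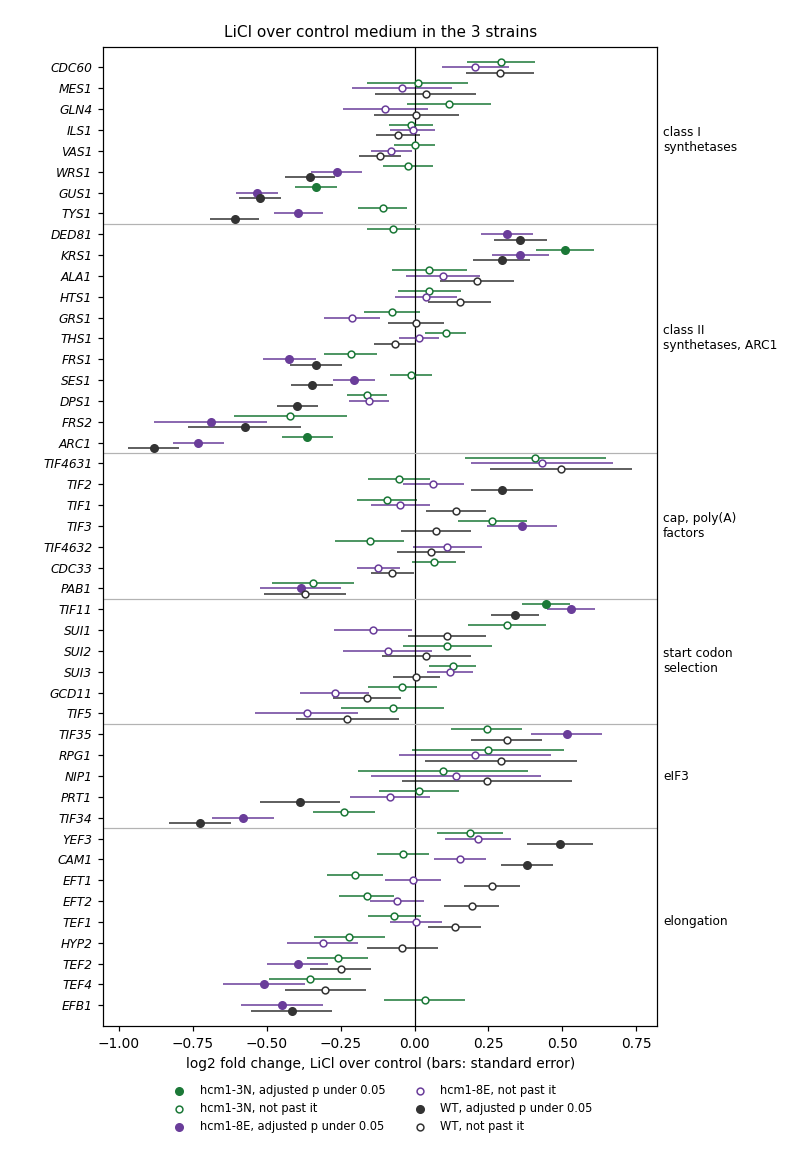
Log2 fold change of LiCl over control medium (x axis) for the 46 genes, grouped by role, in hcm1-3N (green), hcm1-8E (purple) and WT (black), with bars of 1 standard error and filled points for an edgeR adjusted p under 0.05. ARC1 lies farthest to the left in WT at -0.88 and KRS1 and TIF11 lie right of 0 with filled points in all 3 strains.

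Among the 8 class I synthetases none was called higher in LiCl, and 1 fell in hcm1-3N, 3 in hcm1-8E and 3 in WT. TYS1 (YGR185C, chrVII:866336-867520, minus strand, R64), the tyrosyl-tRNA synthetase, stood at 283, 251 and 259 CPM in WT in LiCl (replicates 1, 2 and 3, as in all such lists) and at 396, 401 and 413 CPM in WT in control medium. The LiCl libraries lay below the control libraries without overlap (log2 fold change -0.61 ± 0.083, edgeR adjusted p = 0.000165, the ± giving the standard error here and below). TYS1 fell in hcm1-8E too (log2 fold change -0.39 ± 0.083, edgeR adjusted p = 0.00320), while the difference in hcm1-3N was -0.11 ± 0.083 (edgeR adjusted p = 0.384), with overlapping groups.

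GUS1 (YGL245W, chrVII:39023-41149, plus strand), the glutamyl-tRNA synthetase, fell in all 3 strains. It had 393, 391 and 421 CPM in hcm1-3N in LiCl, against 486, 517 and 513 CPM in its control medium. In hcm1-8E it had 442, 390.1 and 419 CPM in LiCl and 573, 650.0 and 586 CPM in control medium, and in WT 427, 404 and 403 CPM in LiCl and 599.9, 573 and 599 CPM in control medium. No LiCl library reached a control library in any strain, and the 9 LiCl values lay between 390.1 and 442 CPM. The differences were -0.33 ± 0.071 in hcm1-3N (edgeR adjusted p = 0.0115), -0.53 ± 0.071 in hcm1-8E (0.000162) and -0.52 ± 0.071 in WT (0.000164). The hcm1-3N call was lost in 3 of 6 fits that left out 1 library (control replicate 2, control replicate 3 or LiCl replicate 2), where the largest adjusted p was 0.0575.

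WRS1, for tryptophan, fell in hcm1-8E (-0.26, edgeR adjusted p = 0.0313) and in WT (-0.35, 0.00668). The hcm1-8E call was lost without any 1 of control replicates 2 and 3 and LiCl replicates 2 and 3, with adjusted p up to 0.121. The other 5 class I genes were not called: CDC60 for leucine was at 0.29 in hcm1-3N, 0.21 in hcm1-8E and 0.29 in WT, and MES1 for methionine, GLN4 for glutamine, ILS1 for isoleucine and VAS1 for valine lay between -0.12 and 0.12. With the replicate block CDC60 was called higher in LiCl in hcm1-3N (edgeR adjusted p = 0.0153) and WT (0.0129).

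ARC1 (YGL105W, chrVII:307437-308567, plus strand), whose product binds tRNA and holds the glutamyl and methionyl synthetases in a complex, showed the lowest log2 fold change of the 46 genes in hcm1-8E and WT. In WT it had 351, 346 and 367 CPM in LiCl and 636, 657 and 668 CPM in control medium (log2 fold change -0.88 ± 0.087, edgeR adjusted p = 2.52e-05). In hcm1-8E it had 352, 338 and 355 CPM in LiCl and 544, 576 and 616 CPM in control medium (log2 fold change -0.73 ± 0.087, edgeR adjusted p = 6.85e-05). In hcm1-3N it had 372, 395 and 318 CPM in LiCl and 424, 502 and 469 CPM in control medium (log2 fold change -0.36 ± 0.086, edgeR adjusted p = 0.0187). The LiCl and control libraries did not overlap in any strain. The LiCl values of the 3 strains overlapped each other, while in control medium the hcm1-3N values were lowest, those of hcm1-8E next and those of WT highest, without overlap. The hcm1-3N call was lost without control replicate 2 or control replicate 3, where the log2 fold change ranged over -0.43 to -0.28 among all fits that left out 1 library and the largest adjusted p was 0.101. Of its partners GUS1 fell with it, and MES1 was at 0.01, -0.043 and 0.038 in hcm1-3N, hcm1-8E and WT, with no call.

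Of the 10 class II synthetases, 4 fell in LiCl in WT, namely DPS1 for aspartate, FRS1 and FRS2 for the subunits of the phenylalanyl enzyme, and SES1 for serine. DPS1 (YLL018C, chrXII:109902-111575, minus strand) had 619.9, 597 and 569.7 CPM in LiCl and 775, 792 and 785 CPM in control medium in WT, groups well apart (log2 fold change -0.40 ± 0.068, edgeR adjusted p = 0.000759). In the mutants it was at -0.16 (hcm1-3N, edgeR adjusted p = 0.125) and -0.15 (hcm1-8E, 0.105). FRS1 fell in hcm1-8E (-0.42, edgeR adjusted p = 0.00320) and WT (-0.33, 0.0116). FRS2 also fell in hcm1-8E (-0.69, 0.0151) and WT (-0.57, 0.0342), so that the genes of both subunits of the enzyme changed in the same direction. In hcm1-3N they stood at -0.22 and -0.42 without a call. The FRS2 call was lost in 5 of 6 such fits in WT (all but the one without LiCl replicate 1, adjusted p up to 0.105) and without LiCl replicate 2 or 3 in hcm1-8E (up to 0.0621). SES1 was at -0.20 in hcm1-8E (edgeR adjusted p = 0.0435) and -0.35 in WT (0.00248), and the hcm1-8E call held in 1 of 6 fits that left out 1 library, the one without control replicate 1 (adjusted p up to 0.158 in the others).

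KRS1 and DED81 were the synthetase genes that rose. KRS1 (YDR037W, chrIV:525440-527215, plus strand), for lysine, had 1034, 1041 and 1082 CPM in hcm1-3N in LiCl and 766, 743 and 709 CPM in its control medium (log2 fold change 0.51 ± 0.10, edgeR adjusted p = 0.00838). Every LiCl library of that strain lay above its control libraries, and the same held in hcm1-8E (0.36, edgeR adjusted p = 0.0139) and WT (0.29, 0.0338). The WT call was lost without control replicate 2, control replicate 3, LiCl replicate 1 or LiCl replicate 2 (adjusted p up to 0.204), and the hcm1-8E call without LiCl replicate 1 (0.0818). DED81 (YHR019C, chrVIII:141894-143558, minus strand), for asparagine, rose in hcm1-8E (0.31, edgeR adjusted p = 0.0177) and WT (0.36, 0.00803), and was at -0.072 in hcm1-3N (0.601). Its call was lost without LiCl replicate 1 or control replicate 3 in hcm1-8E (adjusted p up to 0.0861) and without LiCl replicate 1 or control replicate 2 in WT (0.0628). No call was made for ALA1 (alanine), GRS1 (glycine), HTS1 (histidine) or THS1 (threonine), which lay between -0.21 and 0.21 over the 3 strains.

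The bases before the start codon were searched for the Gcn4 core TGACTC on both strands, within 300 bases, because Gcn4 acts through it before some synthetase genes. It was present before 7 of the 19 synthetase and ARC1 genes (36.8%), before 0 of the other 27 members and before 465 of 6006 protein-coding genes (7.74%). The windows below are from the RefSeq R64 genome, written 5′ to 3′ on the strand of the gene, with the match in capitals (GAGTCA is TGACTC read on the other strand). They lie at chrXV:949139-949168 (ALA1, minus), chrVIII:143802-143831 (DED81, minus), chrII:84346-84375 (ILS1, minus), chrIV:525294-525323 (KRS1, plus), chrIX:212283-212312 (THS1, plus), chrVII:672076-672105 (VAS1, plus) and chrVII:307419-307436 (ARC1, plus). In ARC1 the match ends at the base next to the start codon, and its window stops there. The windows are shown so that the genes with and without a call in LiCl can be set beside them.
ALA1: gattaaggaactTGACTCtttctttcaaga
DED81: caagacattcagTGACTCaagcatcgctta
ILS1: tcgaaacaatgaTGACTCttaagcatgaaa
KRS1: tgaatgatgaaaTGACTCttaatgaacttc
THS1: ttactgtttaaaTGACTCttaccttgtgat
VAS1: atttttttagaaGAGTCAcccatacagcct
ARC1: atagagtttcaaGAGTCA
KRS1 and DED81, the synthetase genes that rose in LiCl in hcm1-8E and WT, are both among the 7. Of the 8 genes of this group that fell in WT, ARC1 has the sequence. ALA1, ILS1, THS1 and VAS1 have it and were not called. The mRNA of GCN4 itself, a gene outside the set that is regulated mainly in translation and was picked here after its values were seen, was at 0.13 in hcm1-3N (edgeR adjusted p = 0.504), 0.51 in hcm1-8E (0.00974) and 0.47 in WT (0.0127, lost without control replicate 2 or LiCl replicate 1, adjusted p up to 0.0922). The core of the PAC element of ribosome biogenesis genes, GATGAG, was before 8 of the 46 genes (17.4%) and 1147 of the 6006 (19.1%). A match of letters is a description of the genome and shows no binding.

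**Figure D3:**
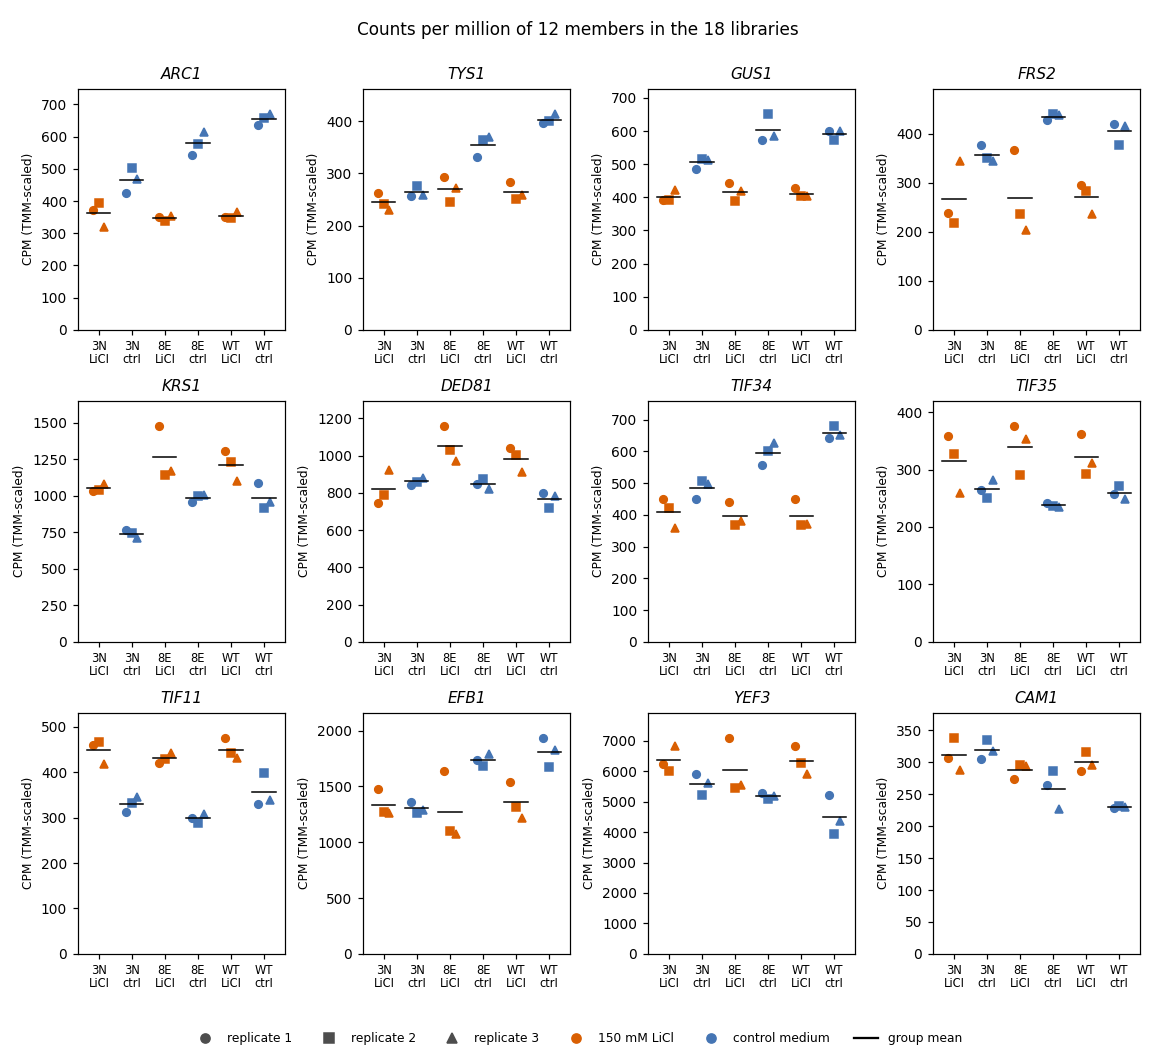
CPM of 12 of the genes in the 18 libraries, with LiCl libraries in orange left of the control libraries in blue for hcm1-3N, hcm1-8E and WT, symbols for the replicate number and a line at the group mean. For ARC1 the 9 LiCl libraries lie between 318 and 395 CPM, and all 9 control libraries lie higher, with the hcm1-3N controls lowest among them.

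The 7 factors of the cap and the poly(A) tail gave few calls. TIF2 (YJL138C, chrX:153504-154691, minus strand), a gene for the helicase eIF4A, had 1149.6, 1191 and 1107 CPM in LiCl and 927, 885 and 994 CPM in control medium in WT. The groups were apart there (log2 fold change 0.30 ± 0.10, edgeR adjusted p = 0.0440), but none of the 6 fits without 1 library kept the call, with log2 fold changes of 0.23 to 0.34 and adjusted p up to 0.181. In hcm1-3N TIF2 had 988, 1059 and 1399.8 CPM in LiCl and 1152, 1144 and 1275 CPM in control medium, and in hcm1-8E 1179, 1170.3 and 1096 CPM in LiCl and 1078, 1134 and 1084 CPM in control medium, overlapping in both (-0.051 and 0.064). PAB1 (YER165W, chrV:510373-512106, plus strand), for the poly(A)-binding protein, had 757, 689 and 667 CPM in WT in LiCl and 963, 831 and 938 CPM in WT in control medium, groups that did not overlap, with an edgeR adjusted p of 0.0548 (log2 fold change -0.37 ± 0.14). It fell in hcm1-8E (-0.39, edgeR adjusted p = 0.0480), a call that held in 1 of 6 fits without a library, that without LiCl replicate 1 (adjusted p up to 0.165 in the others), and was at -0.34 in hcm1-3N (0.111). With the replicate block PAB1 was called lower in all 3 strains (edgeR adjusted p = 0.0417 in hcm1-3N, 0.0174 in hcm1-8E and 0.0241 in WT).

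TIF4631, for the larger of the eIF4G scaffold proteins, shows what the pairing of replicates changes. It had 298, 210.2 and 179 CPM in LiCl and 204, 152 and 162 CPM in control medium in hcm1-3N, 319, 179.6 and 215 CPM and 198, 166 and 164 CPM in hcm1-8E, and 310.0, 198 and 221 CPM and 209, 147 and 161 CPM in WT, the LiCl values first. Replicate 1 was the highest of its group each time, so the groups overlapped, yet within a replicate number the LiCl library was above its control library in all 9 pairs. The log2 fold changes of 0.41, 0.43 and 0.50 in hcm1-3N, hcm1-8E and WT missed the threshold (edgeR adjusted p = 0.256, 0.192 and 0.133) and passed it with the replicate block (0.00692, 0.00444 and 0.00104). TIF3, for the helicase cofactor eIF4B, rose in hcm1-8E (0.36, edgeR adjusted p = 0.0328), a call that held when LiCl replicate 2 was left out and was lost in the other 5 such fits (adjusted p up to 0.128). CDC33, for the cap-binding protein eIF4E, and the second eIF4G gene TIF4632 lay between -0.15 and 0.11 and were not called, nor was TIF1.

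In start codon selection, TIF11 (YMR260C, chrXIII:789378-789839, minus strand), for eIF1A, which promotes scanning of the small subunit along the mRNA, rose in all 3 strains. It had 460.3, 467 and 419 CPM in LiCl and 312, 332 and 345 CPM in control medium in hcm1-3N (log2 fold change 0.44 ± 0.081, edgeR adjusted p = 0.00722). In hcm1-8E it had 421, 429 and 443 CPM in LiCl and 298, 288 and 309 CPM in control medium (log2 fold change 0.53 ± 0.081, edgeR adjusted p = 0.000467). In WT it had 474, 443 and 432 CPM in LiCl and 329, 399 and 339 CPM in control medium (log2 fold change 0.34 ± 0.081, edgeR adjusted p = 0.00656). The LiCl libraries were above the control libraries of their strain without exception, and the WT call alone was lost in a fit without 1 library, LiCl replicate 1 (adjusted p = 0.0532). The remaining genes of this role were not called in any strain. GCD11 (YER025W), for the gamma subunit of eIF2, which carries the initiator tRNA, had 451, 363 and 350.3 CPM in WT in LiCl and 469, 416 and 417 CPM in WT in control medium, overlapping (-0.16, edgeR adjusted p = 0.315). SUI2 and SUI3, for its alpha and beta subunits, lay between -0.091 and 0.13. SUI1, for eIF1, was at 0.31 in hcm1-3N, -0.14 in hcm1-8E and 0.11 in WT, and TIF5, for the GTPase activator eIF5, at -0.073, -0.36 and -0.23. With the replicate block SUI1 was called higher in LiCl in hcm1-3N (edgeR adjusted p = 0.00873), TIF5 lower in hcm1-8E (0.00249) and WT (0.0423), and GCD11 lower in hcm1-8E (0.0189).

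The 5 subunits of eIF3, the complex that organises factors on the small subunit, did not move as one. TIF34 (YMR146C, chrXIII:557481-558524, minus strand), for the i subunit, had 450.5, 369 and 371 CPM in WT in LiCl, against 640.5, 678 and 651 CPM in WT in control medium (log2 fold change -0.73 ± 0.10, edgeR adjusted p = 0.000260). It fell in hcm1-8E as well (-0.58, edgeR adjusted p = 0.00123), and was at -0.24 in hcm1-3N (0.136). PRT1 (YOR361C, chrXV:1015361-1017652, minus strand), for the b subunit, had 287, 211 and 222 CPM in WT in LiCl and 339.6, 299 and 303 CPM in WT in control medium, with LiCl below (log2 fold change -0.39 ± 0.14, edgeR adjusted p = 0.0428). That call held only in the fit without LiCl replicate 1, of 6 that left out 1 library (adjusted p up to 0.145), and PRT1 was at 0.016 and -0.084 in hcm1-3N and hcm1-8E. TIF35, for the g subunit, went the other way and rose in hcm1-8E (0.51, edgeR adjusted p = 0.00596), with 0.24 in hcm1-3N and 0.31 in WT (0.0612), the last called with the replicate block (0.0270). RPG1 and NIP1, for the a and c subunits, lay between 0.10 and 0.29 with standard errors of 0.26 and 0.29 in WT, the widest of the set.

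In elongation YEF3 (YLR249W, chrXII:636780-639914, plus strand), for the fungal factor eEF3 that clears the exit site of the ribosome, had 6818, 6253 and 5922 CPM in WT in LiCl and 5201, 3949.9 and 4363 CPM in WT in control medium (log2 fold change 0.49 ± 0.11, edgeR adjusted p = 0.00464). The LiCl libraries all lay above the controls there and in the mutants, where the log2 fold change was 0.19 (hcm1-3N, edgeR adjusted p = 0.259) and 0.22 (hcm1-8E, 0.160). EFB1 fell in hcm1-8E (-0.45, edgeR adjusted p = 0.0253) and WT (-0.42, 0.0340) and was at 0.034 in hcm1-3N. When 1 library was left out, the hcm1-8E call held only without LiCl replicate 1 (adjusted p up to 0.107 in the other 5 fits) and the WT call only without control replicate 2 or LiCl replicate 1 (up to 0.111 in the other 4). EFB1 and TEF4 each hold a short noncoding gene on the same strand, whose reads could be shared with them. HYP2, for eIF5A, which helps ribosomes past runs of proline, had 1795, 1473 and 1769.7 CPM in LiCl and 1880.3, 1854 and 2138 CPM in control medium in hcm1-3N, 1729.8, 1474 and 1226 CPM and 1835, 1843 and 1818 CPM in hcm1-8E, and 1882, 1528 and 1521 CPM and 1619, 1726 and 1729 CPM in WT, the LiCl values first. Its LiCl libraries lay below the controls in both mutants and overlapped them in WT. It was not called (-0.22, -0.31 and -0.041), except lower in hcm1-8E with the replicate block (edgeR adjusted p = 0.0313).

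TEF4 and CAM1 both code for eEF1B gamma, a structural subunit of the exchange factor complex. TEF4 had 1516, 1324 and 1872 CPM in LiCl and 2112, 1895 and 2014 CPM in control medium in hcm1-3N (-0.35, edgeR adjusted p = 0.102), 1737, 1383 and 1164 CPM in LiCl and 1927, 2105 and 2064 CPM in control medium in hcm1-8E (-0.51, 0.0135), and 1643, 1419 and 1379 CPM in LiCl and 1861, 1716 and 1896 CPM in control medium in WT (-0.30, 0.112). Its LiCl libraries were below the controls in each strain, and the hcm1-8E call was lost without control replicate 2 or LiCl replicate 3 (adjusted p up to 0.0555). With the replicate block TEF4 was called lower in hcm1-3N too (edgeR adjusted p = 0.0402). CAM1 had 307, 337 and 289 CPM in LiCl and 306, 334 and 318 CPM in control medium in hcm1-3N (-0.038, 0.788), 273, 296 and 295 CPM and 264, 286 and 226 CPM in hcm1-8E in the same order (0.15, 0.203), and 287, 316 and 296 CPM and 229, 231 and 229.6 CPM in WT (log2 fold change 0.38 ± 0.088, edgeR adjusted p = 0.00505). In WT its LiCl libraries stood clear of the controls, and in the mutants they overlapped.

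Several factors come from gene pairs, and the ratio within a pair does not depend on how a library is scaled. The copies TIF1 and TIF2 differ at 6 of 1188 coding bases, TEF1 and TEF2 at 2 of 1377, and EFT1 and EFT2 at 4 of 2529, with identical stretches of up to 644, 761 and 1262 bases. Reads of 100 bases from those stretches fit both copies, and counting kept reads with a mapping quality above 20, so the levels of these 6 genes are uncertain. HYP2 and ANB1, the copy known for expression at low oxygen, differ at 43 of 474 bases, while TEF4 and CAM1 share 69.1% and TIF4631 and TIF4632 59.8% of aligned bases. The coding windows below (RefSeq R64, 5′ to 3′) show how few bases tell the copies apart, with the differing bases in capitals. They cover coding bases 199 to 228 of TIF1 (chromosome XI) and TIF2 (chromosome X), 733 to 762 of TEF1 (chromosome XVI) and TEF2 (chromosome II), 418 to 447 of EFT1 (chromosome XV) and EFT2 (chromosome IV), and 394 to 423 of HYP2 (chromosome V) and ANB1 (chromosome X).
TIF1: caatctggtactggtaagaccggtacCttT
TIF2: caatctggtactggtaagaccggtacTttC
TEF1: agattgccattgcaagatgtttacaagatT
TEF2: agattgccattgcaagatgtttacaagatC
EFT1: gaaactgttttgagacaagctttgggtgaA
EFT2: gaaactgttttgagacaagctttgggtgaG
HYP2: aaggaCttgatggtTacCatcatCtcCgcT
ANB1: aaggaTttgatggtCacTatcatTtcTgcC
The log2 ratio of counts was compared between LiCl and control libraries within strains by an exact two-sided permutation test over 8000 arrangements, the smallest possible p being 0.00025, with Benjamini-Hochberg adjustment over the 6 pairs. TEF1 over TEF2 was at -0.090 to 0.16 in the 9 LiCl libraries and -0.36 to -0.21 in the 9 control libraries, a mean difference of 0.33 (exact p = 0.00025, adjusted 0.0015), higher in LiCl in 9 of 9 pairs of the same strain and replicate number. TEF4 over CAM1 differed by -0.57 (exact p = 0.00075, adjusted 0.0015), lower in 8 of 9 pairs, and TIF1 over TIF2 by -0.10 (exact p = 0.00075, adjusted 0.0015), lower in 8 of 9 pairs. By strain the TIF1 over TIF2 difference was -0.037 in hcm1-3N, -0.11 in hcm1-8E and -0.16 in WT. TIF4631 over TIF4632 differed by 0.42 (exact p = 0.0348, adjusted 0.0417) and HYP2 over ANB1 by 0.44 (exact p = 0.03, adjusted 0.0417), each higher in 9 of 9 pairs, and these adjusted values reached 0.0903 when 1 library was left out. EFT1 over EFT2, the genes of the translocase eEF2, differed by 0.027 (exact p = 0.623), with 6 of 9 pairs higher.

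The single copies behind these ratios had the following levels. TEF1 had 4038, 4197 and 5125 CPM in LiCl and 4279, 4669 and 5054 CPM in control medium in hcm1-3N, 4624, 4721 and 4468 CPM and 4478, 4766 and 4525 CPM in hcm1-8E, and 4857, 5102 and 4383 CPM and 4409, 4357 and 4282 CPM in WT, and the 2 media overlapped in every strain. TEF2 had 4108, 4274 and 5454 CPM and 4934, 5618 and 6019 CPM in hcm1-3N, 4717, 4232 and 4081 CPM and 5408, 5908 and 5825 CPM in hcm1-8E, and 4503, 4695 and 4271 CPM and 5183, 5408 and 5421 CPM in WT, again LiCl first. The LiCl libraries of TEF2 lay below the controls in hcm1-8E and WT and overlapped them in hcm1-3N. TEF2 fell in hcm1-8E (-0.40, edgeR adjusted p = 0.0107) and was at -0.26 (0.105) in hcm1-3N and -0.25 (0.0786) in WT, while TEF1 was not called (-0.068, 0.0046 and 0.14). Of the eEF1A pair TEF2 alone carried a call.

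TIF1 had 696, 725 and 924 CPM in LiCl and 796, 805 and 902 CPM in control medium in hcm1-3N, 828, 807 and 721 CPM and 807, 842 and 785 CPM in hcm1-8E, and 789, 788 and 718 CPM and 705, 653 and 725 CPM in WT. These groups overlapped in each strain. TIF4632 had 73.1, 84.6 and 68.0 CPM and 78.3, 84.4 and 88.1 CPM in hcm1-3N, 69.1, 74.3 and 84.9 CPM and 67.1, 70.4 and 73.8 CPM in hcm1-8E, and 70.6, 81.6 and 86.2 CPM and 68.5, 86.0 and 75.0 CPM in WT, LiCl first, with overlap throughout. ANB1, not one of the 46, had 10.7, 14.7 and 20.4 CPM and 17.8, 25.4 and 24.9 CPM in hcm1-3N, 14.4 to 22.7 CPM and 25.8 to 30.8 CPM in hcm1-8E, and 14.8, 21.9 and 21.9 CPM and 23.4, 32.7 and 39.3 CPM in WT, with a fall called in WT (log2 fold change -0.70 ± 0.25, edgeR adjusted p = 0.0491). That call was lost in 5 of 6 fits without a library, all but the one without control replicate 1 (log2 fold change -0.91 to -0.52, adjusted p up to 0.193), and with the replicate block ANB1 was called lower in hcm1-3N (0.00170) and hcm1-8E (0.000745) as well.

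EFT1 and EFT2 had log2 fold changes of opposite sign in hcm1-3N and WT. EFT1 had 650.1, 770.0 and 836 CPM in LiCl and 791, 833 and 971 CPM in control medium in hcm1-3N, 716, 771 and 769 CPM and 719.8, 793 and 749 CPM in hcm1-8E, and 776, 823 and 817 CPM and 673, 635 and 706 CPM in WT. EFT2 had 1236, 1367 and 1370.0 CPM and 1429, 1404 and 1609 CPM in hcm1-3N, 1427, 1161 and 1321 CPM and 1396, 1356 and 1320.3 CPM in hcm1-8E, and 1378, 1326 and 1391 CPM and 1294, 1044 and 1243 CPM in WT, LiCl first. In WT the LiCl libraries of both lay above the controls (log2 fold changes 0.26 and 0.19, edgeR adjusted p = 0.0501 and 0.130), and in hcm1-3N those of EFT2 lay below them while those of EFT1 overlapped (-0.16 and -0.20, 0.249 and 0.166). EFT1 was called higher in WT with the replicate block (edgeR adjusted p = 0.0158).

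The effect of the Hcm1 mutants in control medium was the study's next question. For hcm1-3N against WT, 9 of the 46 genes were called, 2 higher and 7 lower in hcm1-3N, where 7.68% of all genes were called, 4.23% higher and 3.45% lower. With the replicate block 18 genes were called (of all genes 22.5%), 5 higher and 13 lower, and these held the 9. The libraries did not overlap for 25 members, 8 above and 17 below WT, and for 35.4% of all genes. Synthetases made up most of the calls: 6 of the 19 synthetase and ARC1 genes fell, 16 of 19 had a negative log2 fold change, and their median was -0.22, where all genes had -0.0025. On library totals without TMM the median of all genes was -0.071 and 15 members were called, 3 higher and 12 lower, with 8.19% of all genes.

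TYS1 had 258, 277 and 258 CPM in hcm1-3N and 396, 401 and 413 CPM in WT, both in control medium (log2 fold change -0.61 ± 0.083, edgeR adjusted p = 0.00110). ARC1 had 424, 502 and 469 CPM in hcm1-3N and 636, 657 and 668 CPM in WT (log2 fold change -0.49 ± 0.086, edgeR adjusted p = 0.00481). DPS1 had 572, 638 and 605 CPM in hcm1-3N and 775, 792 and 785 CPM in WT (log2 fold change -0.37 ± 0.068, edgeR adjusted p = 0.00579). For these 3 genes the libraries of hcm1-3N lay below those of WT without overlap, and the calls held in all 6 fits without a library. WRS1 (-0.44, edgeR adjusted p = 0.00777), SES1 (-0.37, 0.00742) and KRS1 (-0.42, 0.0188) fell too. Of these the KRS1 call was lost without WT replicate 1 or hcm1-3N replicate 2 or 3 (adjusted p up to 0.0824).

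Outside the synthetases TIF34 fell (-0.44, edgeR adjusted p = 0.0192), and CAM1 (0.47, 0.00638) and EFT1 (0.37, 0.0310) rose. Of 6 fits that left out 1 library, the TIF34 call held only in that without hcm1-3N replicate 2 (adjusted p up to 0.0824) and the EFT1 call only in that without hcm1-3N replicate 1 (up to 0.155), while the CAM1 call held in 6 of 6. EFB1, at -0.47, had an edgeR adjusted p of 0.0505, and of 0.00553 once replicate number was a block. The block likewise added CDC60, THS1, VAS1, SUI3 and PRT1 as lower and TIF2, YEF3 and EFT2 as higher in hcm1-3N (edgeR adjusted p from 0.0115 to 0.0468).

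**Figure D4:**
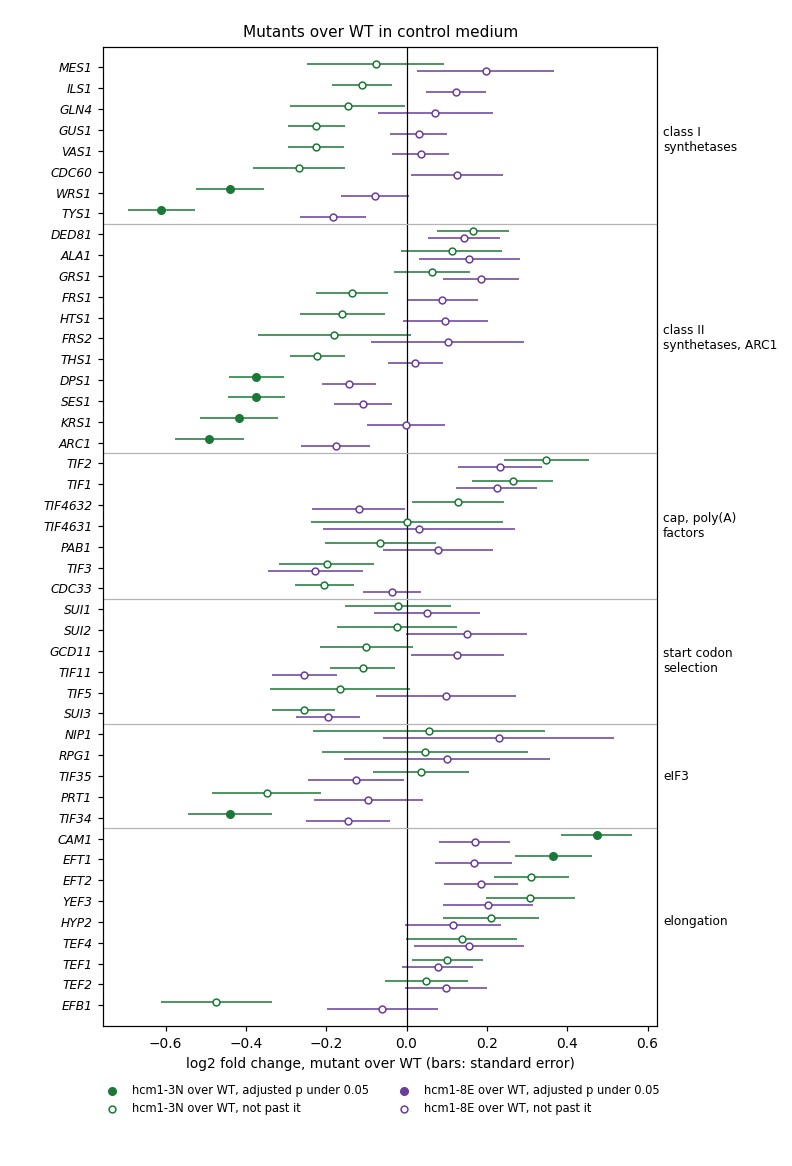
Log2 fold change over WT in control medium (x axis) for the 46 genes, grouped by role, in hcm1-3N (green) and hcm1-8E (purple), with bars of 1 standard error and filled points for an edgeR adjusted p under 0.05. Filled points occur for hcm1-3N alone, 7 left of 0 and 2 right of it, and 16 of the 19 synthetase and ARC1 points of hcm1-3N lie left of 0.

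For hcm1-8E against WT in control medium no member was called by edgeR, with or without the block. Of all genes 0.0641% were called without the block. Among the 46 members 5 had an unadjusted p under 0.05. The share of all genes at an unadjusted p under 0.05 was not counted, here and below, so such counts have no background beside them. DESeq2 also called 0 members, and of all genes the block called 1.59% and DESeq2 2.39%. The libraries of 20 members did not overlap, nor did those of 25.3% of all genes. The median log2 fold change of the 46 was 0.084, and the lowest p belonged to TIF11 (-0.25, edgeR adjusted p = 0.218).

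Between the mutants in control medium, hcm1-3N over hcm1-8E, edgeR called 0 members and 0.0641% of all genes. At an unadjusted p under 0.05 there were 17 members, a count without a share of all genes to set it against. DESeq2 called 10 (of all genes 1.91%) and edgeR with the replicate block 6 (3.73%), namely TYS1, WRS1, KRS1, CDC60 and EFB1 as lower and CAM1 as higher in hcm1-3N (adjusted p from 0.0219 to 0.0437). Of the 19 synthetase and ARC1 genes 18 had a negative log2 fold change, with a median of -0.26 beside 0.0053 over all genes, and in 16 of them every hcm1-3N library lay below every hcm1-8E library. Such separation in either direction was found for 30 of the 46 members and 26.7% of all genes. TYS1 had the lowest p, with 258, 277 and 258 CPM in hcm1-3N and 331, 364 and 369.6 CPM in hcm1-8E (log2 fold change -0.43 ± 0.083, edgeR adjusted p = 0.0723). These values rest on the same hcm1-3N control libraries as the comparison with WT.

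The strains were also compared within LiCl. The libraries did not overlap for 6 members in hcm1-3N over WT, for 5 in hcm1-8E over WT and for 9 in hcm1-3N over hcm1-8E, where 11.2%, 7.37% and 13.1% of all genes did not. For hcm1-3N against WT no member was called by edgeR (3 at an unadjusted p under 0.05, 0 with the block or with DESeq2), where 0.721% of all genes were called, 3.05% with the block and 2.5% with DESeq2. For hcm1-8E against WT edgeR called none (1 at an unadjusted p under 0.05, 0 with the block or with DESeq2), where 0.0321% of all genes were called, 0.305% with the block and 0.24% with DESeq2. Between the mutants in LiCl, hcm1-3N over hcm1-8E, 1 member was called, with 3.06% of all genes. This was DED81, with 746, 786 and 925 CPM in hcm1-3N and 1156, 1031 and 971 CPM in hcm1-8E, groups that did not overlap (log2 fold change -0.36 ± 0.09, edgeR adjusted p = 0.0411). The call was lost without LiCl replicate 1 or 2 of either strain (log2 fold change -0.46 to -0.27, adjusted p up to 0.143). With the replicate block 4 were called (of all genes 8.49%), adding CDC60 and ILS1 as lower and SUI1 as higher in hcm1-3N (edgeR adjusted p = 0.0495, 0.0461 and 0.00878).

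The difference between strains in the LiCl response itself was tested as an interaction in the same fit. No member was called by edgeR for hcm1-3N minus WT or for hcm1-8E minus WT (0% of all genes in both), so the larger number of calls in WT than in hcm1-3N is not shown to be a difference in response for any 1 member. Of the 46 members 12 had an unadjusted p under 0.05 for hcm1-3N minus WT and 1 for hcm1-8E minus WT, edgeR with the replicate block called 0 in both (of all genes 0.641% and 0.337%), and DESeq2 called 3 and 0 (of all genes 1.83% and 0.866%). The lowest p values for hcm1-3N minus WT belonged to TYS1 (0.50 ± 0.12, edgeR adjusted p = 0.150) and ARC1 (0.52 ± 0.12, 0.152), whose LiCl log2 fold change was less negative in hcm1-3N. Both genes were already lower in the hcm1-3N control cultures, which enter this difference.

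Other genes of translation were counted for comparison. Of 23 further initiation and control genes 0 rose and 2 fell in LiCl in hcm1-3N, 4 rose and 3 fell in hcm1-8E, and 4 rose and 6 fell in WT. These are 8.7%, 30.4% and 43.5% of the list, where 10.3%, 29.5% and 30.4% of all genes were called, so that the first pair of shares is near the background. Once replicate number was a block, 5 rose and 3 fell in hcm1-3N, 6 rose and 5 fell in hcm1-8E, and 7 rose and 9 fell in WT. With the block 34.8%, 47.8% and 69.6% of the list were called, and 38.1%, 48.1% and 49% of all genes. The blocked shares in hcm1-3N and hcm1-8E were thus near those of all genes. EAP1, for a protein that binds eIF4E and limits initiation, was at -0.48 in hcm1-3N (edgeR adjusted p = 0.0309), -0.56 in hcm1-8E (0.00479) and -1.07 in WT (6.75e-05). The hcm1-3N call of EAP1 was lost without any 1 of its control replicates or LiCl replicate 2 (adjusted p up to 0.119). STM1, for a ribosome-binding protein, fell in WT (-0.61, 0.00124). Of 8 termination and recycling genes edgeR called none in hcm1-3N (3 at an unadjusted p under 0.05, 2 with DESeq2 and 4 with the replicate block, all higher), 2 rose in hcm1-8E, and 3 rose and 3 fell in WT, among them TMA22 (0.43, edgeR adjusted p = 0.00219) and TMA20 (-0.41, 0.00808), for proteins of ribosome recycling. In the blocked fit TMA22 was called higher in hcm1-3N as well (edgeR adjusted p = 0.0347), and 4 genes rose in hcm1-8E and 4 rose and 3 fell in WT. The called shares of this list were 0%, 25% and 75% without the block, and 50%, 50% and 87.5% with it. With the block 38.1%, 48.1% and 49% of all genes were called.

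Of 20 mitochondrial synthetases and translation factors edgeR called none higher, also with the replicate block, and 4 fell in hcm1-3N (20%), 8 in hcm1-8E (40%) and 11 in WT (55%), where 5.18%, 12.5% and 13.9% of all genes fell. With the block 7, 12 and 14 fell (35%, 60% and 70% of the list), where 38.1%, 48.1% and 49% of all genes were called in either direction. Their median log2 fold changes were -0.21, -0.30 and -0.43, against 0.0092, 0.032 and 0.018 over all genes. NAM2, the mitochondrial leucyl enzyme, was at -0.82 in WT (edgeR adjusted p = 0.000325) and SLM5, the asparaginyl one, at -0.83 in hcm1-3N (0.00523), -0.72 in hcm1-8E (0.00225) and -0.91 in WT (0.000452). The cytosolic asparaginyl gene DED81 rose in WT and hcm1-8E, as given above. Of 12 genes of tRNA modification 1 rose in each strain, TAD2 for a subunit of the deaminase that makes inosine in tRNA anticodons (0.83 in hcm1-3N, 0.95 in hcm1-8E and 0.65 in WT, edgeR adjusted p = 0.0118, 0.00157 and 0.0132), and none fell. These are 8.33% of the list, under the share of all genes that rose in hcm1-8E and WT. With the replicate block 11 rose in hcm1-3N, 6 in hcm1-8E and 7 in WT (91.7%, 50% and 58.3% of the list). The block called 38.1%, 48.1% and 49% of all genes in either direction. Without it the medians of the list were 0.48, 0.54 and 0.45. The TAD2 call was lost without control replicate 2 or 3 or LiCl replicate 1 in hcm1-3N (adjusted p up to 0.0655) and without control replicate 3 or LiCl replicate 1 in WT (0.0985).

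Replicate 1 differed from the other replicates unevenly over the members. Averaged over the 6 groups, NIP1 was 0.60 higher on the log2 scale in replicate 1 than in replicates 2 and 3, RPG1 0.52, TIF4631 0.50 and TIF5 0.34, and for each of these replicate 1 was the highest of its group in 6 of 6 groups. At the other end stood TIF4632 (-0.16) and EFT1 (-0.13), with replicate 1 highest in 0 of 6 groups. The eIF4G genes TIF4631 and TIF4632 thus stood at opposite ends. Of the eIF3 genes, those for the a and c subunits were high, and TIF34 for the i subunit was at 0.062. Of the 4 genes called in all 3 strains, ARC1 was at -0.053, GUS1 at 0.0012, TIF11 at -0.025 and KRS1 at 0.12, and in KRS1 replicate 1 was the highest in 4 of 6 groups. Over the 46 genes the Spearman correlation of this shift with coding length was 0.17, and that of the LiCl log2 fold change with coding length was 0.09 in hcm1-3N, 0.29 in hcm1-8E and 0.23 in WT. For log2 fold changes between strains within a medium it ran from -0.49 (hcm1-3N over hcm1-8E in LiCl) to 0.37 (hcm1-8E over WT in LiCl). These are descriptions over genes of the same libraries, and their part in the results was not tested. Without all 6 replicate 1 libraries 7 members were called for LiCl in hcm1-3N (31.2% of all genes), with the 4 among them, and 8 between the mutants in control medium (11.2% of all genes). In hcm1-8E 20 were called (47.3% of all genes), 2 higher and 18 lower, with 14 of the 17 among them.

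**Figure D5:**
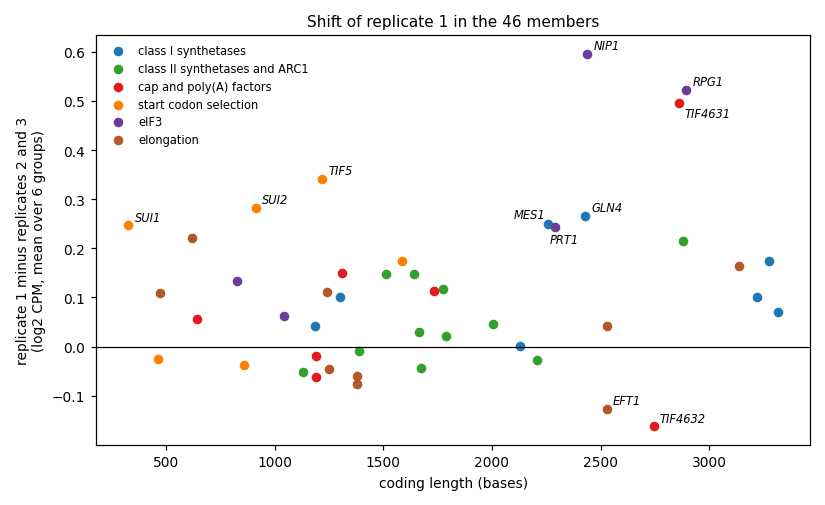
Shift of replicate 1 from replicates 2 and 3 (y axis, log2 CPM, mean over the 6 groups) against coding length in bases (x axis) for the 46 genes, with colours for the roles. NIP1, RPG1 and TIF4631 lie highest, at 0.60, 0.52 and 0.50, and TIF4632 lies lowest at -0.16.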

How the data were processed

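The authors sequenced strand-specific poly(A) libraries as paired-end reads, aligned them to the yeast genome R64 and counted fragments over exons with featureCounts, keeping those of mapping quality above 20. The aligner's name and whether counting used strand are not given in the sources used here. The deposited values were counts for 7126 genes and TPM (the authors' counts per gene length, scaled to one total) for the 6754 genes with at least 10 counts. The authors' own comparisons, made with DESeq2, were not used.

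From the counts, edgeR 4.0.16 (R 4.3.3) gave TMM factors, filterByExpr kept 6239 genes, and a robust quasi-likelihood fit of 6 group means over 18 libraries gave 11 comparisons, with Benjamini-Hochberg adjustment over all genes tested and a threshold of 0.05. The libraries held 18816441 to 21851012 counts, and 197 genes had none. CPM values use the TMM factors, except those of the floor and of the mating type and deleted marker genes, which use library totals. Intervals are not given for single libraries, and p-values cover the spread between cultures. The ratios within gene pairs came from the counts and were tested with an exact permutation test within strains. An exact sign-flip test over pairs of the same strain and replicate number was added. The fit was tested on simulated data that held no shift shared by replicate number, so that test does not cover such shifts. Replicate numbers paired the samples: deviations from group means correlated between same-numbered samples of the groups compared at r of 0.237 to 0.89, so a fit with the replicate number as a block was added.

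Other settings tried were size factors, library totals, no filter, DESeq2 1.42.0, only the groups compared, the block, leaving out each library, and, chosen after seeing the data, the block with library totals and leaving out all replicate 1 libraries. The 46 genes, the other lists and the rule for named genes were chosen with earlier results of these data known. Values for every sample were given for the genes with the 2 smallest p in LiCl in WT in each role, up to 3 called genes by smallest p in each other comparison, and both copies of 6 gene pairs. From each other list at most 2 genes were named, by smallest p in WT, besides ANB1 as a copy of HYP2 and GCN4, which was picked after its values were seen. Sequences were read from the RefSeq R64 genome, in whose annotation all 46 genes were found. Chromosome positions are from that annotation.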

Additional observations from a re-analysis of the deposited data

Results flagged for a closer look

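EFT2, a gene for the translocase eEF2, was singled out because its libraries moved in opposite directions in 2 strains. In hcm1-3N the 3 LiCl libraries lay below the 3 control libraries (log2 fold change -0.16), and in WT the 3 LiCl libraries lay above the 3 control libraries (0.19). Neither change within a strain was called by edgeR. Groups without overlap in either direction were found for 31.3% of all genes in hcm1-3N and 45.3% in WT. How many of all genes separated in opposite directions in these strains was not counted. The difference between the responses, hcm1-3N minus WT, was -0.35 on the log2 scale, and it was tested as an interaction, with an edgeR adjusted p of 0.296. EFT2 differs from EFT1 at 4 of 2529 coding bases, so its level is uncertain.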

How the results depend on the processing

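Direction was checked gene by gene for LiCl in each strain, for hcm1-3N against WT in control medium and for DED81 between the mutants in LiCl. The copy ratios were checked as well. None of these changed its direction while called, under any setting tried. Of the counts of members called, that for LiCl in WT (17) became 26 with the replicate block on library totals (47.9% of all genes). Shares in brackets below are likewise those of all genes called in the same fit. That for LiCl in hcm1-3N (4) became 0 with only the groups compared (0.31%), 9 with the block (38.1%), 10 with the block on library totals (36.7%) and 7 without all replicate 1 libraries (31.2%). That in hcm1-8E (17) became 8 with only the groups compared (18.8%). For hcm1-3N against WT in control medium (9) it became 15 on library totals (8.19%), 17 with DESeq2 (13.2%), 18 with the block (22.5%) and 21 with the block on library totals (22.7%). For the control cultures of the mutants, set against each other, the main count was 0. This became 10 with DESeq2 (1.91%) and 8 without all replicate 1 libraries (11.2%). The block gave 6 there (3.73%), and so did the block on library totals (2.98%). For the LiCl cultures of the mutants the main count was 1. Size factors (2.98%), no filter (2.54%) and only the groups compared (0%) each gave 0 for them. Library totals gave 2 (3.24%), DESeq2 3 (5.85%), the block 4 (8.49%) and the block on library totals 7 (9.36%). The difference in LiCl response of hcm1-3N and WT (0) became 3 with DESeq2 (1.83%). Leaving out 1 library at a time gave 2 to 11 calls in LiCl in hcm1-3N (2.42% to 20.1%), 10 to 17 in hcm1-8E (16.9% to 25.5%) and 12 to 14 in WT (19.6% to 28.8%), 6 to 8 for hcm1-3N against WT in control medium (2.64% to 4.87%), 0 to 1 between the mutants in LiCl (1.4% to 5.25%), and 0 to 0 in the other 6 comparisons (0% to 0.541%). It gave copy ratios of -0.11 to -0.094 for TIF1 over TIF2, 0.32 to 0.50 for TIF4631 over TIF4632, 0.31 to 0.35 for TEF1 over TEF2, -0.0062 to 0.061 for EFT1 over EFT2, -0.63 to -0.51 for TEF4 over CAM1, and 0.33 to 0.50 for HYP2 over ANB1. For the log2 fold changes so checked, 1532 values under other settings kept their side of the threshold, 46 lost a call and 118 gained one, and with 1 library left out 1161 kept it, 97 lost a call and 14 gained one. The causes were not tested. The replicate block took away none of the 48 calls made for members without it. The median standard error of a member's LiCl log2 fold change in WT was 0.105, and reads shared by near-identical copies limit TEF1, TEF2, EFT1, EFT2, TIF1 and TIF2 whatever the depth.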
